A study of Mus musculus with 6 samples.

Results

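The GIMAP genes (GTPases of immunity-associated proteins) were followed in intestinal epithelial cell preparations of 6 mice, each hybridised to its own Affymetrix array. Members were all probe sets whose single platform gene symbol was Gimap1, Gimap3, Gimap4, Gimap5, Gimap6, Gimap7, Gimap8 or Gimap9. These were 11 probe sets of 8 genes, out of 45101 probe sets in the table. The 3 control mice carried the floxed Pggt1b gene and no VillincreERT2 transgene. The 3 deficient mice carried the floxed gene together with VillincreERT2, a tamoxifen-inducible Cre recombinase driven by a promoter of the gut epithelium. Pggt1b codes for the beta subunit of GGTase-I, which joins geranylgeranyl groups to proteins. All 6 mice were of a mixed 129/SV and C57BL/6 background and received 1 mg tamoxifen daily for 3 days, with cells taken on day 6 from the start. The transgene was present in the deficient mice only, so an effect of the recombinase and one of the deletion cannot be told apart. The recombinase is meant to act in epithelium and not in lymphocytes. Which cells of the preparations gave the GIMAP signal was not measured. The sources used here give no sex, age, gut segment or scan batch.

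GIMAP proteins share a guanine nucleotide-binding domain and are made mainly by lymphocytes, where several of them sit on intracellular membranes. They are known for keeping resting T cells alive, and rodents that lack Gimap5 lose most of their T cells. The genes lie side by side in a single cluster. Intraepithelial lymphocytes are T cells and related cells that live between the epithelial cells of the gut and are recovered with them. In RNA from whole preparations, fewer cells of a type and less RNA per cell cannot be told apart.

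Promoter sequences are shown for Gimap4, Gimap6 and Gimap7, neighbours in the cluster that were each called lower, to allow a view of the letters upstream of genes that moved together. They are the 250 bases before the annotated start from RefSeq (GRCm38.p6), written 5′ to 3′ on the strand of the gene. Capitals mark GGAAG or its reverse complement CTTCC, the core letters bound by ETS family transcription factors. The windows are chr6:48684328-48684577 on the plus strand, chr6:48708245-48708494 on the minus strand and chr6:48718371-48718620 on the plus strand.
Gimap4: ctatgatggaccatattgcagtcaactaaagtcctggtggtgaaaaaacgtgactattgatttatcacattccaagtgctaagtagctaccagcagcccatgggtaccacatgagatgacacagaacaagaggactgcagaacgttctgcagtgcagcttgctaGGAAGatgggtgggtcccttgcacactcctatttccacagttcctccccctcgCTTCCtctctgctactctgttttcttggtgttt
Gimap6: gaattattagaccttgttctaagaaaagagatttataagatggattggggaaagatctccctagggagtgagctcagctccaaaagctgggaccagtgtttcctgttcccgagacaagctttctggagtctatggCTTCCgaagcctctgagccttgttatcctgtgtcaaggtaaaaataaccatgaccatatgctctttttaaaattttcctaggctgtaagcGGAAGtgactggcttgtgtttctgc
Gimap7: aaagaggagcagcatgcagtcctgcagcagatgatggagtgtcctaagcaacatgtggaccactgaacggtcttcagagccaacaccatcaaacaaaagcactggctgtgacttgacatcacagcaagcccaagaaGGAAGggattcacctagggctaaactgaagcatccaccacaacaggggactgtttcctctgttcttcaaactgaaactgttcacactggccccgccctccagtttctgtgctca
All 8 members matched the promoter table, with 9 windows because Gimap8 had 2. The ETS letters were in 8 of the 9 windows, beside 64.1% of all 32851 windows of this length. The window without them was 1 of the 2 of Gimap8, which overlap each other and so are not separate sequences. The letters TGTGGT or ACCACA of RUNX factors were in 3 windows, of Gimap1, Gimap4 and Gimap7, beside 14.0% of all windows. TGGGAA or TTCCCA of RBPJ were in 0 of the 9, beside 21.6%. CAGGTG or CACCTG, an E-box, were in that of Gimap9 alone, beside 17.2%, and GGGTGG or CCACCC of KLF and Sp factors in 5, beside 28.1%. TATAAA or TTTATA were in 1, of Gimap6, beside 12.4%. Both strands were searched for each, and 0 pairs of matches of different motifs overlapped. These motifs were chosen without regard to binding data, none of which was used here, and a match is a description of letters only.

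The arrays were alike in range, with 35.6% to 36.5% of probe sets above 5 on the log2 scale. That level served as a filter, not as a measured background. A gene was tested where at least 3 arrays lay above it, and each gene was represented by its probe set with the highest mean. Of 8893 genes tested with limma, 176 were lower and 10 higher in the deficient arrays at an adjusted p under 0.05. The Pggt1b probe set with the highest mean read 9.30, 9.55 and 9.33 in the controls and 9.75, 8.88 and 8.83 in the deficient arrays. The other Pggt1b probe sets changed by -0.08, 0.01 and 0.15, the last of them under 5 on every array. The groups overlap for each Pggt1b probe set, so none checks the labels, and directions below rest on the labels. The place of these probe sets relative to the deleted exons was not known here. Epithelial markers were present throughout. All 15 of that list were tested, with Epcam, an epithelial adhesion molecule, between 14.34 and 14.66 on the 6 arrays, and the list's mean level in the deficient arrays stood 0.03 to 0.38 above its control mean.

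Gimap4, Gimap6, Gimap7 and Gimap8 fell in the deficient arrays, Gimap1 and Gimap9 had lower means that did not pass, and Gimap3 and Gimap5 were too dim to be tested. Of the 6 genes tested, 4 were called lower and 0 higher, beside 1.98% of all genes called lower. Groups did not overlap for any of the 6, beside 16.7% of genes tested whose deficient arrays all lay under the controls. Gimap3 and Gimap5 failed the level filter, and Gimap6 passed it through its control arrays alone, so these counts describe the tested genes and support nothing by themselves. The median log2 change of the 6 was -2.09, against -0.04 over all genes tested. With values at or below 5 raised to 5 it was -1.56. Without the level filter, which brings the genes compared to 18193, limma called 0 of the 8 (7 had an unadjusted p under 0.05), beside 0.467% of genes called lower. In that fit Gimap7, Gimap8, Gimap4 and Gimap6 had adjusted p of 0.0568, 0.0763, 0.0848 and 0.156. Among the genes above the filter level the count of 4 also varied. It was 1 without control replicate 1, 2 without control replicate 2 or deficient replicate 2, 2 with the replicate number as a block, and 3 with values under 5 raised to 5.

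**Figure D1:**
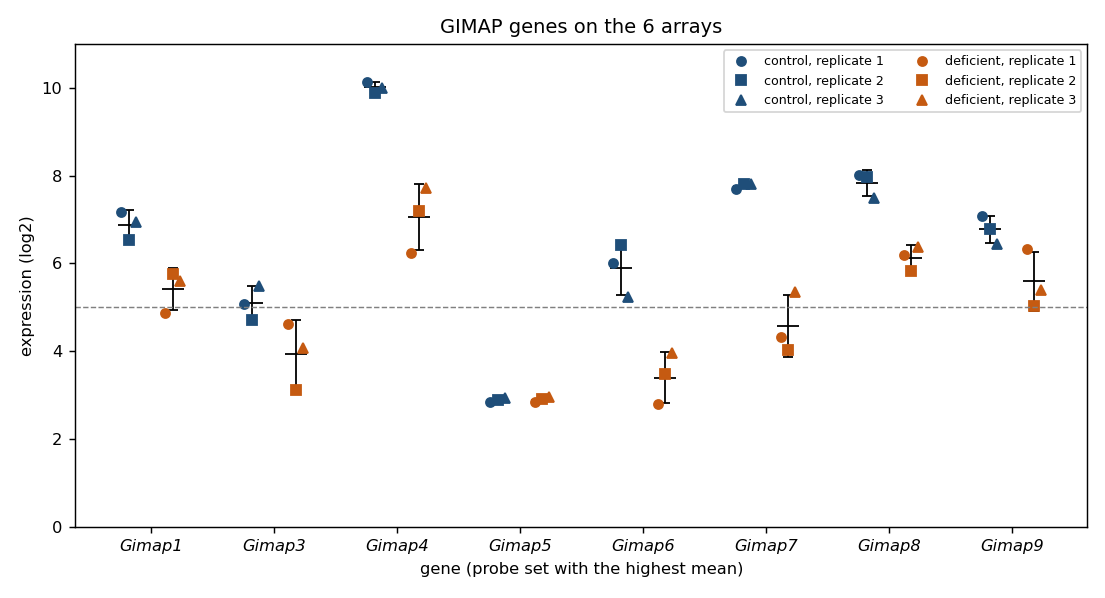
Expression (log2) of each GIMAP gene on the 6 arrays, each by its brightest probe set; blue points are controls, orange points deficient arrays, shapes are replicate numbers, black bars are the mean and SD of 3 arrays, and the dashed line is the filter level 5. Gimap4, Gimap6, Gimap7 and Gimap8 show wide gaps between the groups, Gimap9 and Gimap3 narrow ones, and Gimap5 lies near 2.9 on every array. The deficient points of Gimap6 all lie under the dashed line.

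Gimap7, a GTPase that hydrolyses GTP when its molecules pair, had the largest fitted change. It read 7.70, 7.81 and 7.80 in control replicates 1 to 3 and 4.32, 4.03 and 5.36 in deficient replicates 1 to 3. The controls lie within 0.11 of each other, and the highest deficient array, replicate 3, is 2.34 below the lowest control. The log2 change was -3.20 ± 0.34 (SE, limma adjusted p = 0.00461). Because 2 deficient arrays lay under 5, the fold is a bound, at least 6.30-fold lower. With any 1 array left out Gimap7 still passed, with adjusted p from 0.00323 to 0.0335. Its other probe set stayed under 5 on every array, at 2.89 to 3.88 in controls and 2.72 to 2.74 in deficient arrays, and was not tested.

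Gimap4, linked to the timing of T cell death, read 10.14, 9.88 and 9.999 in the controls and 6.24, 7.20 and 7.71 in the deficient arrays. All 6 arrays were above 5, so this fall is not measured against the filter level. Its control mean was 10.01 ± 0.13 (SD, n = 3) and its deficient mean 7.05 ± 0.75 (SD, n = 3), a 7.77-fold fall (log2 -2.96 ± 0.36 SE, limma adjusted p = 0.00868). Deficient replicate 1 is the lowest and replicate 3 the highest, with a range of 1.47 against 0.26 among controls. The call failed narrowly without control replicate 1 or control replicate 3, with adjusted p up to 0.0551 over the 6 such fits. The probe set used has a name ending in _s_at, which marks a design shared by several transcripts, and signal from related genes in it was not tested. The second Gimap4 probe set carries no such suffix and read 7.89, 6.98 and 7.92 in controls and 4.32, 5.06 and 5.38 in deficient arrays. It also passed in the fit over probe sets, at an adjusted p of 0.0181.

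Gimap8, the member with several GTPase domains in a row, read 8.02, 7.98 and 7.49 in the controls and 6.19, 5.82 and 6.38 in the deficient arrays. Every array was above 5 and the groups were 1.11 apart. The gene fell 3.24-fold (log2 -1.70 ± 0.23 SE, limma adjusted p = 0.0127). Its deficient arrays differed least among the members that passed, with a range of 0.56. The call was lost when control replicate 1, control replicate 2 or deficient replicate 2 was left out, at limma adjusted p of 0.0666, 0.053 and 0.0564.

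Gimap6, which has been tied to autophagy through the Atg8 family protein Gabarapl2, read 6.00, 6.43 and 5.23 in controls and 2.79, 3.47 and 3.95 in the deficient arrays. All 3 deficient arrays lay under 5, and control replicate 3 only just above it. The fitted log2 change was -2.48 ± 0.39 (SE, limma adjusted p = 0.0253), but the bound against the level 5 is at least 1.85-fold lower. With values under 5 raised to 5 the change was -0.89 and did not pass (limma adjusted p = 0.222). Of the fits that left out 1 array, 2 of 6 passed, without control replicate 3 or deficient replicate 3, and adjusted p reached 0.114. The second Gimap6 probe set gave 6.11, 5.78 and 5.13 in controls and 2.97, 3.42 and 3.61 in deficient arrays, with the same order of the deficient arrays.

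Gimap1, which mature T and B cells need to survive, read 7.18, 6.53 and 6.95 in controls and 4.88, 5.77 and 5.60 in deficient arrays. The groups were 0.76 apart and the log2 change was -1.47 ± 0.29 (SE), which did not pass (limma adjusted p = 0.0635). It passed with array weights (0.0182) and after quantile normalization (0.0465), and in 0 of the 6 fits that left out 1 array. Gimap9 read 7.08, 6.79 and 6.45 in controls and 6.34, 5.04 and 5.40 in deficient arrays. Here deficient replicate 1, the lowest array for Gimap4, Gimap6 and Gimap1, is the highest and lies 0.11 below the lowest control. The log2 change of Gimap9 was -1.18 ± 0.35 (SE, limma adjusted p = 0.186). Without deficient replicate 1 it was -1.56 and passed at an adjusted p of 0.0464.

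Gimap3 and Gimap5 encode closely related proteins reported to bind Bcl2 family proteins. Gimap3 read 5.08, 4.70 and 5.48 in controls and 4.62, 3.12 and 4.08 in deficient arrays. Only 2 arrays were above 5, so it was not tested, and the groups were 0.08 apart. Gimap5 read 2.84, 2.90 and 2.93 in controls and 2.84, 2.91 and 2.95 in deficient arrays. It lay under 5 on all 6 arrays with overlapping groups, so its single probe set gave no level to compare. The gene table lists Gimap5 among older names of Gimap3, so earlier records of the pair may be exchanged.

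**Figure D2:**
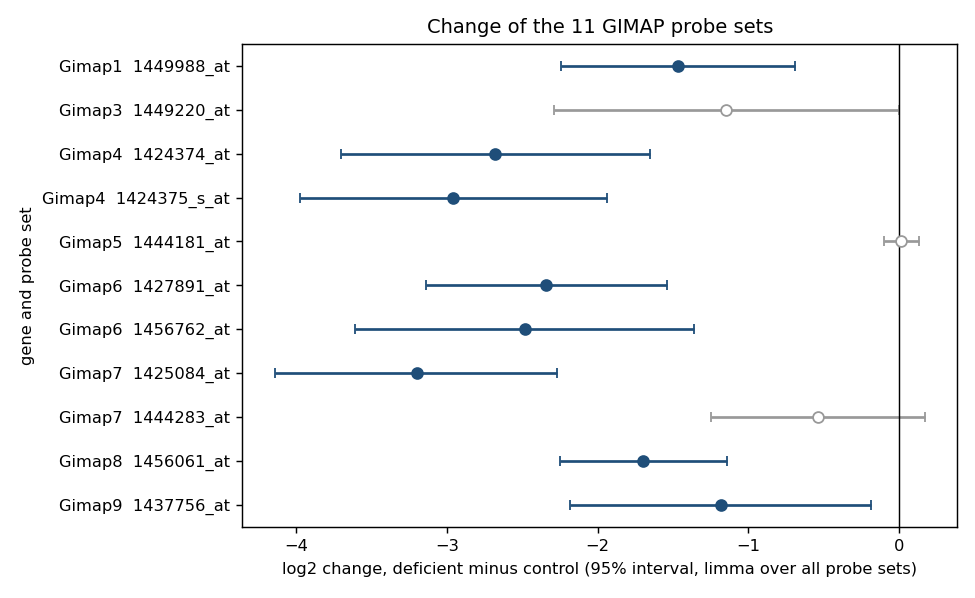
Log2 change (deficient minus control, horizontal axis) of the 11 GIMAP probe sets with 95% intervals from limma over all probe sets without a level filter; filled blue points passed the filter and open grey points did not. The 8 filled points all lie left of 0, between -3.20 and -1.18, and the probe set of Gimap5 lies at 0.01.

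At the level of probe sets, 8 of the 11 passed the filter and 6 were called lower, beside 1.38% of the 14478 probe sets tested. The 6 were both probe sets of Gimap4, both of Gimap6, and those of Gimap7 and Gimap8. Both of Gimap6 lay under 5 on all 3 deficient arrays and passed the filter through their controls alone. The count of 6 therefore supports nothing by itself. The 2 probe sets of Gimap4 changed by -2.96 and -2.68 and those of Gimap6 by -2.48 and -2.34. Within each of these genes they agreed in direction and nearly in size, but for Gimap6 the sizes rest on values under 5. With such values raised to 5 the Gimap6 changes were -0.89 and -0.67. Those of Gimap7 changed by -3.20 and -0.54, but the second lay under 5 on every array and was not tested. Probe sets of a gene share its RNA and are not replicates. The count fell to 1 without control replicate 1, to 3 without control replicate 2 and to 1 without deficient replicate 2.

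The fitted changes were -3.20 for Gimap7, -2.96 for Gimap4, -2.48 for Gimap6, -1.70 for Gimap8, -1.47 for Gimap1 and -1.18 for Gimap9. The place of Gimap6 in that order rests on values under 5, and with these raised to 5 its change, -0.89, was the smallest of the 6. The 95% intervals of the fit were -4.00 to -2.40 for Gimap7 and -3.81 to -2.10 for Gimap4, against -2.24 to -1.16 for Gimap8 and -2.02 to -0.34 for Gimap9. Among the 15 pairs, intervals were apart in 4: Gimap7 from Gimap1, Gimap8 and Gimap9, and Gimap4 from Gimap9. An exact two-sided permutation test over arrays of the within-array difference gave the smallest p this design allows, 0.10, in 8 pairs. Adjusted over the 15 pairs these were 0.188. No pair could have passed 0.05 with 3 against 3 arrays, so this test does not say whether members differed in the size of their change. In deficient arrays Gimap6 lay wholly and Gimap7 partly under 5, and the part of the low level in these differences was not tested.

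In chromosomal order the cluster runs Gimap8, Gimap9, Gimap4, Gimap6, Gimap7, Gimap1, Gimap5 and Gimap3 in the GRCm38.p6 gene table, on chromosome 6. Gimap4, Gimap6 and Gimap7, each called lower, are neighbours in the middle, and Gimap8, also called, lies at the end. Of the 5 nearest genes on each side, 5 were measured. Just beyond Gimap3, Tmem176b and Tmem176a, a pair of membrane proteins of immune and other cells, were bright. Tmem176b read 9.92, 9.48 and 9.26 in controls and 9.32, 9.62 and 9.61 in deficient arrays (log2 -0.04 ± 0.22 SE, limma adjusted p = 0.944). Tmem176a was at 0.14 ± 0.26 (limma adjusted p = 0.807). On the Gimap8 side Repin1, a zinc finger protein, was at -0.85 ± 0.22 (limma adjusted p = 0.146) with groups that did not overlap, and Zfp775 and AI854703 lay under 5 on all arrays. The next protein-coding genes on both sides were added after their values were seen. Of these Aoc1, a diamine oxidase of the gut, was tested, at -0.26 ± 0.33 (limma adjusted p = 0.702), and Lrrc61, Rarres2 and Doxl1 did not pass the filter. Thus 0 of the 4 flanking genes tested passed with limma (Repin1 had an unadjusted p under 0.05).

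**Figure D3:**
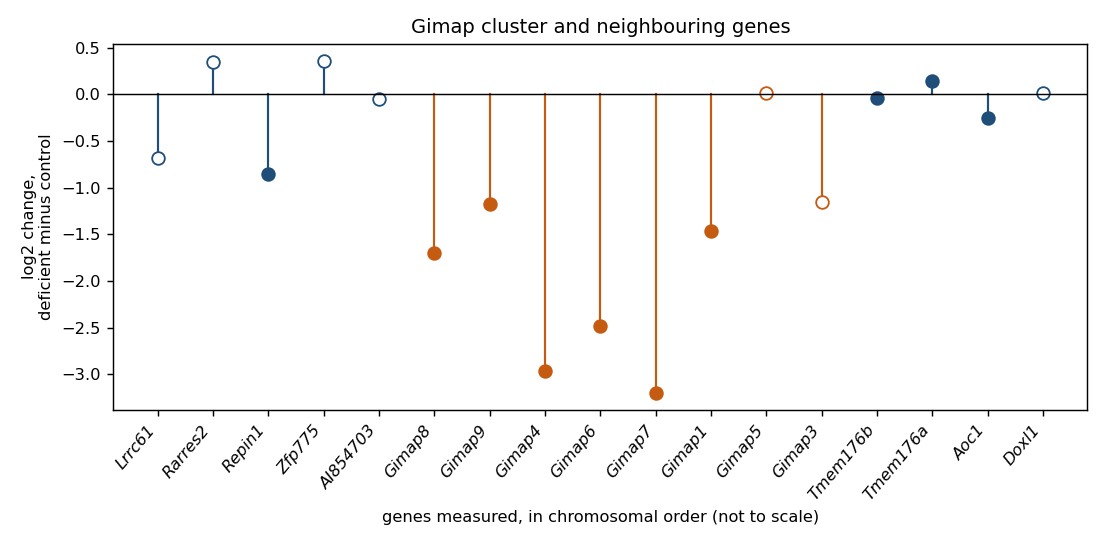
Log2 change (deficient minus control, vertical axis) of the measured genes in chromosomal order, not to scale; orange marks GIMAP genes and blue their neighbours, and open points did not pass the level filter. The GIMAP genes other than Gimap5 lie between -3.20 and -1.15, while among the neighbours tested Tmem176b, Tmem176a and Aoc1 lie between -0.26 and 0.14 and Repin1 at -0.85. Lrrc61, which did not pass the filter, lies at -0.68.

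The GIMAP falls stood beside lower values of many other lymphocyte genes. In the list of the T cell receptor and its nearest signalling proteins all 7 tested genes had lower means. Their median change was -2.65, or -2.2 with values under 5 raised to 5. Of the 7, 6 were called lower and 0 higher, beside the 1.98% of all genes called lower. Of these, Lcp2, Fyn and Cd3d had 0 deficient arrays above 5 and passed the level filter through their controls alone. Without the filter 4 of the 13 genes on the array were called, beside 0.467% of all genes. The median of the 13 was -1.51. Ptprc, the pan-leukocyte phosphatase CD45, read 11.44, 11.16 and 11.21 in controls and 8.18, 8.54 and 9.16 in deficient arrays, a 6.27-fold fall (limma adjusted p = 0.0039). The adaptors Lat and Lcp2 fell too, Lat by at least 4.59-fold and Lcp2 by at least 3.36-fold. In the cytotoxic intraepithelial lymphocyte list all 12 tested genes had lower means. Their median was -3.17, or -2.91 with values under 5 raised to 5. Of the 12, 11 were called lower, again beside 1.98% of all genes. Fasl, Cd7 and Xcl1 passed the filter through their controls alone. Without the filter 1 of the 15 genes on the array was called, beside 0.467% of all genes. Leaving out control replicate 1 or 3, or deficient replicate 2, reduced the count of 11 to 5. Leaving out control replicate 2 reduced it to 6. Klrd1, a natural killer receptor subunit, fell 9.01-fold and the granule protein Nkg7 at least 12.5-fold. Relative to the control mean of each list, deficient replicates 1, 2 and 3 stood at -2.40, -2.30 and -1.79 for the GIMAP genes, at -3.33 (replicate 1) to -2.32 (replicate 3) for the T cell receptor list and at -4.14, -3.33 and -2.57 for the cytotoxic list. Values under 5 were kept as they were in these list means, so their sizes are uncertain. Replicate 1 was the lowest and replicate 3 the highest in all of them. The same order held outside lymphocyte lists, for interferon-inducible GTPases (-0.89, -0.67 and 0.1) and for stromal and muscle markers (-1.21, -0.94 and -0.43). Lymphoid transcription factors stood at -1.72, -1.74 and -1.53, with replicate 2 the lowest. Among tested members replicate 2 was the lowest for Gimap7, Gimap8 and Gimap9. The part of lymphocyte content in the GIMAP values was not tested.

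Lymphoid transcription factors were also among the lower calls. All 9 tested had lower means, with a median of -1.44, and 5 were called lower, beside 1.98% of all genes. Ikzf1, Ikzf3 and Runx3 passed the filter through their controls alone. Without the filter 5 of the 13 on the array were called, beside 0.467% of all genes. Ets1, an ETS family factor abundant in T cells, read 9.61, 9.21 and 9.23 in controls and 7.21, 6.84 and 7.07 in deficient arrays. This was a 4.96-fold fall (limma adjusted p = 0.00183), and a link to the GIMAP promoters was not tested. Ikzf3, a lymphoid zinc finger factor, fell at least 8.79-fold. Bcl11b, a T cell factor, read 8.79 to 9.23 in controls and 8.84 to 9.17 in deficient arrays, with overlapping groups. Genes of naive and recirculating lymphocytes were mostly dim: 5 of 8, among them Il7r, Ccr7 and S1pr1, lay under 5 on all 6 arrays. The 3 tested did not pass with limma (0 at an unadjusted p under 0.05).

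**Figure D4:**
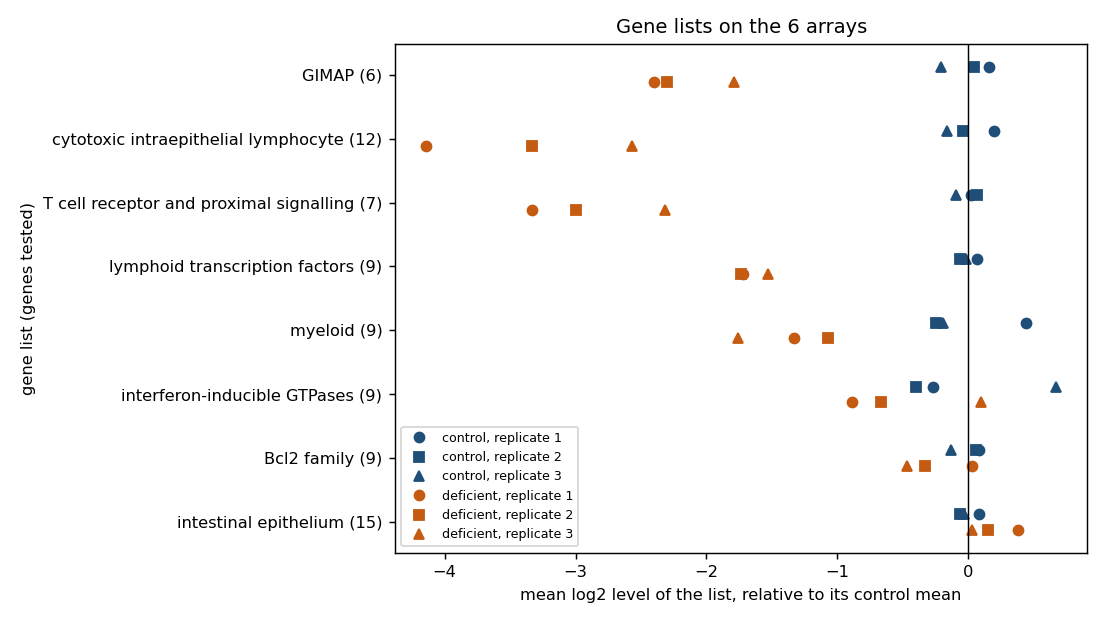
Mean log2 level of each gene list on each array relative to the list's control mean (horizontal axis); blue points are controls, orange points deficient arrays, shapes are replicate numbers, and the number of tested genes stands after each name. Deficient arrays lie at -2.40 to -1.79 for the GIMAP genes, lower for both T cell lists, and at 0.03 to 0.38 for the epithelial list.

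Some lists were taken for what GIMAP proteins do or resemble. No gene was called in those of the Bcl2 family, the Atg8 family with Gsk3b, or interferon-inducible GTPases. This stands beside 1.98% of all genes called lower, a share at which 0 calls in lists this short say little. Of 9 Bcl2 family genes 0 passed with limma (1 at an unadjusted p under 0.05), and the median was -0.15. Bcl2 itself, the survival protein, read 7.94, 7.42 and 6.56 in controls and 6.57, 6.26 and 5.72 in deficient arrays (log2 -1.12, limma adjusted p = 0.228). Of the 5 Atg8 family genes and Gsk3b, 0 passed with limma (1 at an unadjusted p under 0.05), and Gabarapl2, the partner reported for Gimap6, was at 0.28. Interferon-inducible GTPases, another family of immune GTP-binding proteins, had 9 genes tested and 0 past the limma threshold (0 at an unadjusted p under 0.05). Of the 9, 8 had lower means, beside 54.6% of all genes tested. The median of the 9 was -0.56, against -0.04 over all genes tested. Gbp6 was at -0.91, and control replicate 3 stood 0.67 above the list's control mean. These genes are also made by epithelial and other cells.

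Other cell types that such preparations can hold were checked as lists. In the myeloid list all 9 tested genes had lower means, with a median of -1.07, and 4 were called lower, beside 1.98% of all genes. Without the level filter 1 of the 14 on the array was called, beside 0.467% of all genes. The 4 were the signalling adaptors Fcer1g and Tyrobp, which natural killer cells share, Itgax, an integrin, and Adgre1, a macrophage marker. Itgax passed the filter through its controls alone and kept its call in 1 of the 6 fits that left out 1 array. That count was 2 without deficient replicate 2, and the list's deficient arrays stood at -1.33, -1.07 and -1.76, with replicate 3 the lowest. All 15 endothelial markers lay under 5 on every array, the highest value being 4.45 for Egfl7. So did both red blood cell markers. Among 10 B and plasma cell markers 7 lay under 5 on all arrays, including Cd79a and Pax5, and 0 of the 2 tested passed with limma (both had an unadjusted p under 0.05, in opposite directions). Stromal and muscle markers had 0 of 5 past the limma threshold (3 at an unadjusted p under 0.05, all lower) and a median of -1.07. No marker on these lists was listed at 0.

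Several of the genes whose pattern over the 6 arrays was most like that of the GIMAP genes are known from leukocytes. Each tested member was centred on its mean, the members were averaged, and 8887 other genes were ranked by Pearson correlation with that profile. The 10 highest were Lcp2 (0.998), Cst7 (0.997), Ptprc and Lmnb2 (0.995), Pim1, Ctsw and Rgs2 (0.994), and Gfi1, Rxrb and Trgv1 (0.993). Lcp2 is a T cell receptor adaptor, Cst7 and Ctsw are a protease inhibitor and a protease of cytotoxic cells, and Trgv1 is a segment of the gamma T cell receptor. Lmnb2 is a nuclear lamin and Rxrb a retinoid receptor that many cells make. Changes among the 10 ran from -3.66 for Trgv1 to -0.82 for Rxrb, and Rxrb did not pass (limma adjusted p = 0.0752). The values of Lmnb2 were 6.35, 6.33 and 6.12 in controls and 5.23, 5.37 and 5.47 in deficient arrays, and its call was lost in all 6 fits that left out 1 array. Pim1 kept its call in 1 of the 6 such fits and Gfi1 in 3. Over 6 arrays in separate groups such a correlation reflects mainly the group difference, and 447 genes had a value above 0.9.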

How the data were processed

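Total RNA of intestinal epithelial cell preparations was measured on 1 Affymetrix array per mouse, in 3 control and 3 deficient mice grouped by the sample titles. The authors deposited log2 expression values for every probe set on each array. Per the submitters' processing notes Partek 6.5 and GCRMA, a background correction that uses probe sequence, were used. The log2 scale was inferred from values of 0.42 to 16.4. GCRMA gathers dim probe sets near a low floor, so the size of a change that reaches it is uncertain. Neither detection calls nor scanner intensities were used here. Precision is limited by the number of arrays.

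Of 45101 probe sets, 64 control probe sets were left out and 34945 others had 1 gene symbol in a platform annotation, covering 18193 genes. Gene order came from the gene table of GRCm38.p6. For each gene the brightest probe set on average was taken, and genes above 5 on at least 3 arrays were tested with limma 3.58.1 in R 4.3.3 (lmFit, eBayes, no covariate, Benjamini-Hochberg over all genes, threshold 0.05). The procedure was tested on simulated data. Changes are deficient minus control. A fold is given as "at least" where an array lay at or below 5, with such values raised to 5. Titles call the samples biological replicates, and nothing else about their independence was used.

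Named genes were Pggt1b, every member, up to 4 called members per list, or up to 2 where none was called, the 5 genes on each side of the cluster and the 10 most similar genes. Not all that the rule allows are named, and list members given with values that fall outside it were chosen after their values were seen, such as Epcam, Bcl11b, Il7r, Ccr7, S1pr1, Cd79a, Pax5 and Egfl7. The result of 1 list is not reported here. The members and lists were chosen with earlier results of these data known. Alternatives changed moderation, weights, filter, normalization, floor, probe set choice, replicate block and the arrays used.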

Additional observations from a re-analysis of the deposited data

How the results depend on the processing

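Every log2 change of a tested member kept its sign under every alternative. Without the level filter, with 18193 genes tested in place of 8893, 85 genes and 0 members were called (0 of 11 member probe sets), and the members' median was -1.58. The median was -1.73 with array weights, -1.70 with a filter at 4 or at 6, and -1.56 with values under 5 raised to 5. Array weights called 293 genes. Leaving out 1 array gave 93 to 239 genes called, 1 to 4 members, 1 to 6 member probe sets and member medians of -2.34 to -1.93. No sign of pairing by replicate number was seen: deviations from the group means correlated at 0.05, -0.29 and 0.00 for numbers 1, 2 and 3. Unlike numbers gave -0.29 to 0.24. With 3 arrays per group this check cannot exclude pairing. With the replicate block, 141 genes, 2 members and 2 member probe sets were called. With the filter at 4, at 6 or absent, each member tested in the main fit and kept had the same log2 change. The medians of those fits were over 7, 5 and 8 members in place of 6. Without the filter the unadjusted limma p of Gimap7 was also higher, 0.000308 in place of 3.16e-05. Beyond the fits given, the cause of the other shifts was not tested. Two-sided permutation tests of 3 against 3 arrays cannot go below 0.10.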
